A study of Mus musculus with 22 samples.

Results

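The genes described here encode the machinery that writes and erases N6-methyladenosine (m6A) on messenger RNA: 8 subunits of the methyltransferase complex (Mettl3, Mettl14, Wtap, Virma, Zc3h13, Cbll1, Rbm15 and Rbm15b) and 2 demethylases (Fto and Alkbh5). They were taken by symbol from the table of raw counts, which holds 44749 entries for genes and repeat families in 22 RNA-seq libraries of mouse embryonic stem cells (ESCs). All 10 were present and all 10 passed the filter on low counts in every comparison. The ESCs were male lines from the inner cell mass, grown without feeder cells in serum with LIF, and libraries were made from total RNA depleted of ribosomal RNA.

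The Ythdc1 set holds ESCs with a conditional knockout (cKO) of Ythdc1, which encodes a nuclear reader of m6A, after 4OHT (4 libraries) or DMSO (4 libraries). The Mettl3 set holds 2 libraries labelled Mettl3 KO and 2 labelled Mettl3 WT. The Dux set holds Ythdc1 cKO cells that also lack both alleles of Dux (Dux-KO) or 1 allele (Dux-Het), after 4OHT or DMSO (2 libraries in each of these 4 groups), and a pair with no Dux label, 1 library under 4OHT and 1 under DMSO. The protein product of Dux activates a programme of genes first used in the 2-cell embryo. 4OHT is a ligand used to switch on Cre recombinases that are fused to an estrogen receptor domain, and the labels name neither the driver of the recombinase nor the deleted exons, nor the kind of Mettl3 allele. Every library treated with 4OHT carries the Ythdc1 cKO, so an effect of the ligand itself cannot be told apart from the loss of Ythdc1. The Ythdc1 set pools 2 ESC lines that the columns of the count table do not separate.

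In the nucleus, the Mettl3-Mettl14 pair places a methyl group on adenosines of nascent transcripts, and the other subunits hold the pair in place and guide it to RNA. Readers of the YTH family bind the methylated base and steer splicing, export, chromatin-bound RNA or decay of the transcript. Fto and Alkbh5 belong to the AlkB family of dioxygenases and can take the methyl group off. In ESCs, m6A is known for limiting the lifetime of pluripotency transcripts, and it is also placed on RNA of retroelements.

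The stretch below shows how the catalytic subunit and its partner differ at the site where the methyl group is transferred. Each line gives 60 coding bases of GENCODE vM21 on GRCm38, read in the sense of the gene. Capitals mark the 12 bases that encode the conserved catalytic motif of Mettl3 and its counterpart in Mettl14, a subunit that binds RNA and does not itself catalyse. The Mettl3 stretch lies at chr14:52297557-52297616 and the Mettl14 stretch at chr3:123374781-123374840, both on the minus strand and both within 1 coding exon.
Mettl3: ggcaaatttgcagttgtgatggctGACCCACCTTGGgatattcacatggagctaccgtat
Mettl14: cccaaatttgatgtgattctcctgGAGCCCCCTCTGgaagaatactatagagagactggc

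Total counts ran from 24.96 to 54.14 M per library, and the 10 genes held between 395 and 7240 counts in any library. Replicates differed by more than counting error, with a chi-square per degree of freedom of 3.74 to 99.1 over all entries (highest between the Dux-KO replicates under DMSO). Levels are given as CPM, which is the count scaled to library size, after TMM scaling over all 22 libraries. The 10 ESC markers were all detected in every group, with summed levels of 1436 to 1658 CPM in the Ythdc1 set under 4OHT and 1856 to 2137 CPM under DMSO. The 7 markers of fibroblasts or feeder cells summed to 9.29 to 15.0 CPM under 4OHT and 15.0 to 19.4 CPM under DMSO in that set. In the Mettl3 set they summed to 17.4 to 35.2 CPM in the KO libraries and 41.7 to 44.7 CPM in the WT libraries. The 7 markers of 2-cell-like cells summed to 78.9 to 164 CPM under 4OHT and 7.08 to 26.6 CPM under DMSO in the Ythdc1 set, and to 92.8 to 99.9 CPM in the Mettl3 KO libraries and 0.902 to 1.24 CPM in the WT libraries, where 2 of the 7 were at 0. In Dux-Het cells they summed to 47.5 to 55.1 CPM under 4OHT and 6.34 to 7.04 CPM under DMSO, and in Dux-KO cells 6 of the 7 were at 0 under either treatment. Of the 10 ESC markers, 1 was called higher and 4 lower under 4OHT in the Ythdc1 set, where 21.4% of all entries were called lower. In the mean over the Dux set 5 were called lower and none higher, beside 3512 of 29322 entries called lower. Of 6 markers of primitive endoderm, 4 were called higher in the Ythdc1 set (median log2 fold change 0.69), where 23.7% of entries were. In the mean over the Dux set, where 4431 of 29322 entries were called higher, 4 of the 6 endoderm markers were (0.80). They summed to 34.6 to 46.0 CPM under 4OHT and 27.6 to 39.2 CPM under DMSO in the Ythdc1 set, to 23.2 to 29.3 CPM under 4OHT and 14.6 to 18.9 CPM under DMSO in Dux-KO cells, and to 22.7 to 23.96 CPM under 4OHT and 16.1 to 17.0 CPM under DMSO in Dux-Het cells. In the Mettl3 set they summed to 24.4 to 35.9 CPM in the KO libraries and 20.5 to 23.7 CPM in the WT libraries. In Dux-KO cells the ESC markers summed to 1461 to 1584 CPM under 4OHT and 2027 to 2535 CPM under DMSO, and the fibroblast or feeder markers to 27.8 to 31.1 CPM under 4OHT and 49.9 to 66.5 CPM under DMSO. In Dux-Het cells the ESC markers summed to 1458 to 1873 CPM under 4OHT and 2256 to 2485 CPM under DMSO, and the fibroblast or feeder markers to 25.4 to 32.7 CPM under 4OHT and 16.3 to 58.7 CPM under DMSO. The part of these shifts in the changes described below was not tested, and in RNA from whole cultures fewer cells of a type and less RNA per cell cannot be told apart. Replicate 1 of the DMSO group of the Ythdc1 set stood apart from the other libraries of that group, with a chi-square per degree of freedom of 31.0 to 37.1 against them, where they gave 8.44 to 10.8 among themselves. The 4 calls made in the Ythdc1 set among the 10 genes were also made without that library.

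The targeted genes were read before the others as a check of the labels. Ythdc1 transcripts had 62.8, 49.0, 61.2 and 51.8 CPM in the 4 libraries of the Ythdc1 set under 4OHT, against 80.2, 70.8, 73.7 and 77.9 CPM under DMSO. The groups did not overlap, and the log2 fold change of Ythdc1 was -0.41. It passed the quasi-likelihood test of edgeR, whose p is adjusted over all entries tested (SE 0.0812, adjusted p = 0.00064). In Dux-KO cells Ythdc1 had 53.9 and 56.6 CPM under 4OHT and 49.7 and 71.3 CPM under DMSO, which overlap. In Dux-Het cells it had 52.2 and 65.9 CPM under 4OHT and 58.9 and 86.5 CPM under DMSO, and neither Dux genotype passed the test (adjusted p = 0.843 and 0.456 by edgeR). As the deleted exons are not named, reads from outside them may remain in these counts. Mettl3 had 14.5 CPM (414 reads) in replicate 1 and 28.4 CPM (813 reads) in replicate 2 of the libraries labelled Mettl3 KO, against 29.0 and 29.9 CPM (750 and 895 reads) in the WT libraries. Replicate 2 of the KO label therefore held Mettl3 reads at close to the WT level, with a 95% exact Poisson interval of 26.5 to 30.4 CPM that covers counting error only and takes in both WT values. The gene-level count does not separate reads of a disrupted transcript from those of an intact one, and the results of this set are given with and without that library.

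Levels were compared between genes per kilobase of merged exon. Alkbh5 was highest, with a median of 16.3 CPM per kb over the 22 libraries, followed by Wtap (11.7 CPM per kb), Rbm15 (9.95), Virma (9.79), Zc3h13 (7.92), Rbm15b (6.83), Cbll1 (6.62), Mettl3 (6.57), Fto (5.91) and Mettl14 (2.99). Mettl14 was below Fto in 22 of 22 libraries, and Virma was above Zc3h13 in 21 of 22. Rbm15b was above Cbll1 in 10 of 22 and Cbll1 above Mettl3 in 13 of 22, so these neighbours were not separated. The order, its top included, rests on the length used. Per kilobase of the longest coding transcript, an alternative chosen after the data were seen, Wtap was highest with a median of 22.9 CPM per kb, above Alkbh5 in 16 of 22 libraries. On that scale Mettl3 had a median of 16.5 and Fto of 16.4 CPM per kb, level with Rbm15 and Alkbh5 at 17.0 CPM per kb each, and Mettl14 stayed lowest at 3.09 CPM per kb.

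Some of these genes varied little over the 22 libraries as a whole, though Fto was called in the Ythdc1 set and Rbm15 in the Mettl3 set (below). Zc3h13, which holds the complex in the nucleus of mouse ESCs, ran from 43.7 to 58.5 CPM, a coefficient of variation of 8.63% over 22 libraries. Fto ran from 60.8 to 89.9 CPM (9.86%) and Rbm15 from 64.6 to 97.4 CPM (11.6%). Cbll1 and Alkbh5 varied most, each with a coefficient of variation of 25.7%, from 13.6 to 40.9 CPM and from 79.3 to 175 CPM. The median over 5942 gene entries with a mean of 20 to 150 CPM was 21.1%, so 8 of the 10 genes varied less than that median.

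**Figure D1:**
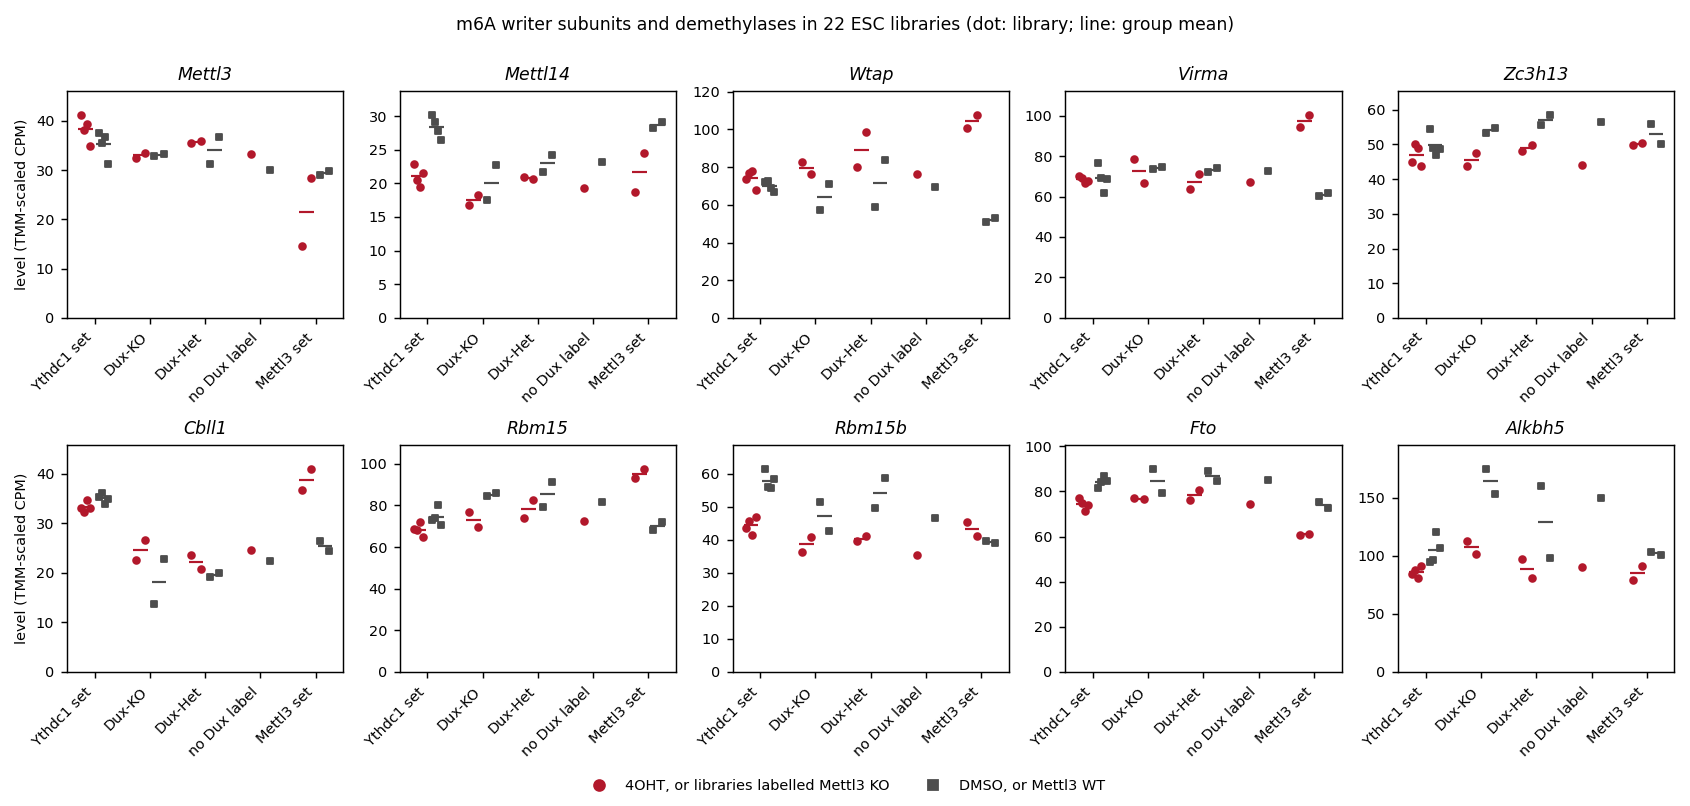
TMM-scaled CPM (y axes, from 0) of the 10 genes in 22 libraries, with red dots for 4OHT or the Mettl3 KO label, grey squares for DMSO or Mettl3 WT, and lines for group means. Mettl14 and Rbm15b are lower under 4OHT than under DMSO in the Ythdc1 set, Alkbh5 is spread between 94.4 and 175 CPM under DMSO, and Wtap and Virma are highest in the 2 libraries labelled Mettl3 KO.

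Within the Ythdc1 set, the question was which of these genes change when the reader is removed. Transcripts of the RNA-binding partner Mettl14, of the RNA-recruiting subunit Rbm15b and of both demethylases fell, and none of the 10 was called higher. The count of 4 of 10 stands beside a background of 45.1% of 24385 entries called in either direction, and 21.4% called lower, so it is near what the whole table showed. Of all entries, 23.7% were called higher. The median log2 fold change of the 10 genes was -0.082, against 0.016 over all entries tested.

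Mettl14 (chr3:123368297-123386108, minus strand) had 22.9, 20.6, 19.5 and 21.5 CPM under 4OHT, against 30.2, 29.1, 27.7 and 26.5 CPM under DMSO. Every 4OHT library lay below every DMSO library, with means of 21.1 ± 1.44 CPM under 4OHT and 28.4 ± 1.59 CPM under DMSO (SD, n = 4 each). The log2 fold change was -0.40 (SE 0.0782, adjusted p = 0.0005 by edgeR). Mettl3, the catalytic subunit, had 41.2, 38.3, 39.4 and 34.9 CPM under 4OHT, against 37.5, 35.4, 36.7 and 31.3 CPM under DMSO. These groups overlap, and the log2 fold change of 0.15 (SE 0.0770) did not pass (adjusted p = 0.132 by edgeR).

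The subunits that anchor the complex gave no call. Wtap had 73.6, 76.6, 78.0 and 67.9 CPM under 4OHT, against 71.9, 72.6, 68.8 and 66.7 CPM under DMSO, which overlap. Wtap, which brings the catalytic pair to nuclear speckles, averaged 74.1 ± 4.46 CPM under 4OHT and 70.0 ± 2.73 CPM under DMSO (SD, n = 4 each; log2 fold change 0.10, edgeR adjusted p = 0.187). Virma, the large scaffold tied to methylation near stop codons in human cells, averaged 68.5 ± 1.66 CPM under 4OHT and 69.1 ± 5.96 CPM under DMSO. Zc3h13 averaged 46.9 ± 3.04 CPM under 4OHT and 49.8 ± 3.22 CPM under DMSO, and Cbll1, a RING-domain protein also called Hakai, 33.3 ± 0.980 CPM under 4OHT and 35.0 ± 0.942 CPM under DMSO. For these 4 genes the log2 fold changes lay between -0.064 and 0.10, with an SE between 0.0608 and 0.0689, and the 4OHT and DMSO libraries overlapped for each.

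The paralogs Rbm15 and Rbm15b, which bind RNA and bring the complex to it, for instance to XIST in human cells, did not give the same call. Rbm15b (chr9:106880918-106887428, minus strand) had 43.7, 45.7, 41.6 and 47.0 CPM under 4OHT, against 61.4, 56.1, 55.5 and 58.3 CPM under DMSO. No library overlapped, and Rbm15b was lower by a log2 fold change of -0.36 (SE 0.0648, adjusted p = 0.000277 by edgeR). Rbm15 had 68.6, 68.4, 71.9 and 64.6 CPM under 4OHT, against 72.9, 73.8, 80.1 and 70.5 CPM under DMSO, and did not pass (log2 fold change -0.10 with SE 0.0622, edgeR adjusted p = 0.212). The difference between the paralogs was not tested as such. Within each library, the ratio of Rbm15b to Rbm15 counts was 0.578 to 0.727 under 4OHT and 0.693 to 0.842 under DMSO, which overlap. Rbm15b shares 75 of its 6511 exonic bases with Dcaf1 on the opposite strand and 14 with Manf, whose annotated span on the same strand covers the whole of Rbm15b, both of which also fell (log2 change -0.23, adjusted p = 0.00183, and -0.31, adjusted p = 0.00107, edgeR). The part of reads from these neighbours in the fall of Rbm15b was not tested.

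Both demethylases fell. Alkbh5 (chr11:60536381-60558512, plus strand) had 84.7, 87.4, 81.3 and 91.4 CPM under 4OHT, against 94.4, 96.8, 121 and 107 CPM under DMSO (log2 fold change -0.26 with SE 0.0770, edgeR adjusted p = 0.011). The groups did not overlap, but DMSO replicates 3 and 4 were well above the other DMSO libraries. Fto (chr8:91313525-91668439, plus strand) had 77.1, 74.8, 71.3 and 73.9 CPM under 4OHT, against 81.5, 84.0, 87.0 and 84.6 CPM under DMSO. Fto libraries did not overlap either, and the change was small (log2 fold change -0.16 with SE 0.0568, edgeR adjusted p = 0.0294). The Fto call did not hold when DMSO replicate 3 or 4, or 4OHT replicate 2, 3 or 4, was left out (adjusted p = 0.0505 to 0.0911 by edgeR, log2 fold change -0.16 to -0.14), or with no filter on low counts (adjusted p = 0.0552). Fto shares 304 exonic bases with Gm45427 and 144 with 4831440D22Rik, both on the opposite strand, and neither of these passed (adjusted p = 0.452 and 0.419 by edgeR).

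The upstream windows of the demethylase genes are shown because both transcripts fell in the Ythdc1 set. Each is the 250 bases before the RefSeq start on GRCm38.p6, on the plus strand, with no annotated exon inside: chr8:91313275-91313524 for Fto and chr11:60537433-60537682 for Alkbh5, whose window lies within the annotated span of the gene. 5 motifs were searched on both strands, the ETS motif CCGGAAG, the CCAAT box, the E-box CACGTG, the YY1 motif AAGATGG and the CRE motif TGACGTCA, and capitals mark the match. Of 32851 windows of that length, 6.91% held the ETS motif, 33.8% the CCAAT box, 6.02% the E-box, 4.49% the YY1 motif and 1.55% the CRE motif.
Fto: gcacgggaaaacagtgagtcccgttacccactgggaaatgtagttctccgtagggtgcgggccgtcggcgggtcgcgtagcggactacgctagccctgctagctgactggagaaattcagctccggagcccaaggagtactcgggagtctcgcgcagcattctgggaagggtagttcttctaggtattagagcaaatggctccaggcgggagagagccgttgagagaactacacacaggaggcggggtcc
Alkbh5: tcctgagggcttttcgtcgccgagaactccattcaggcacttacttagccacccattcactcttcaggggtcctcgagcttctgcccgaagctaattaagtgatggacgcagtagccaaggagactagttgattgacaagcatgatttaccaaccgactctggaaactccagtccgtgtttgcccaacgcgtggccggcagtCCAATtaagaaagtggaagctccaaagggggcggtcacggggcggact
The Alkbh5 window held the CCAAT box, and the letters of none of the 5 motifs were in the Fto window. Their GC contents were 59.2% for Fto and 54.0% for Alkbh5, with 18 and 14 CpG dinucleotides. Entries were found for 8 of the 10 genes (not Mettl14 or Virma).

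**Figure D2:**
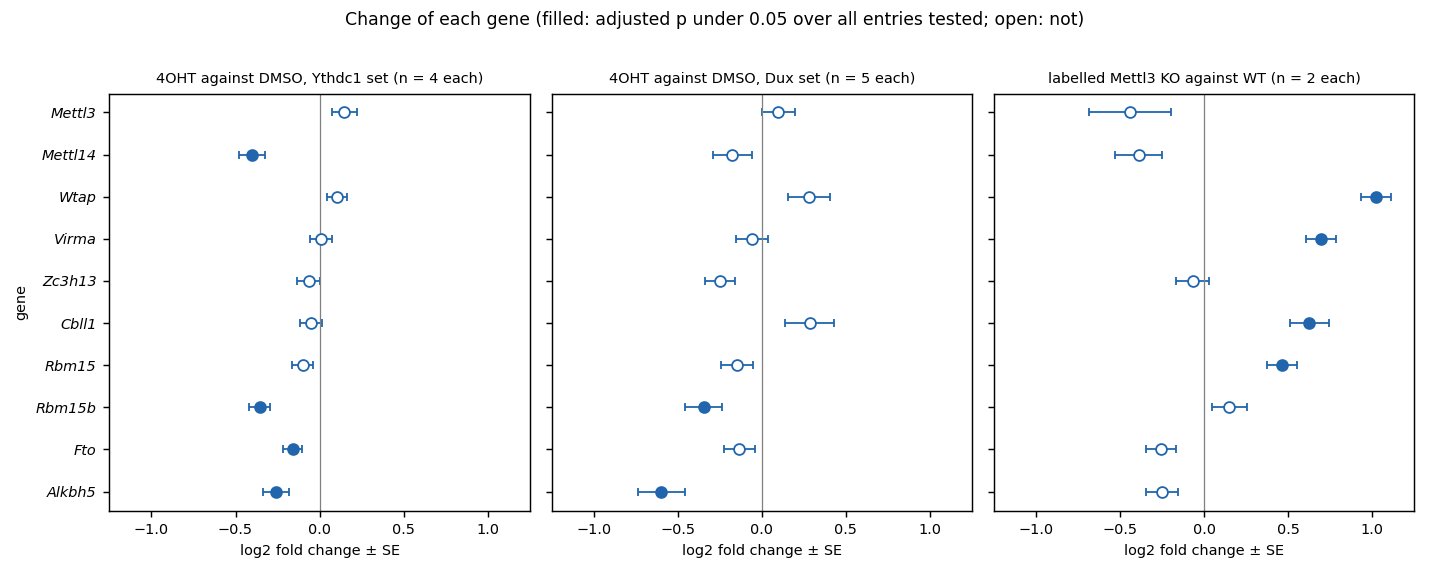
Log2 fold change ± SE (x axes) of each gene under 4OHT against DMSO in the Ythdc1 set and in the Dux set (mean of the effects in Dux-KO, Dux-Het and the pair with no Dux label), and in libraries labelled Mettl3 KO against WT; filled dots passed an adjusted p of 0.05 over all entries tested. Rbm15b and Alkbh5 are filled on the negative side under 4OHT in both sets, and Wtap, Virma, Cbll1 and Rbm15 are filled on the positive side in the Mettl3 set.

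The Dux set asks whether the response to 4OHT depends on Dux. In Dux-KO cells no gene of the 10 passed the test under 4OHT (edgeR, with 9.86% of 29322 entries called). 1 of them, Alkbh5, had an unadjusted p under 0.05, and DESeq2 called 1, also Alkbh5. In Dux-Het cells none passed either (edgeR, 9.34% of entries called), with Alkbh5 and Rbm15b at an unadjusted p under 0.05 and no call by DESeq2. The 4OHT effect in Dux-KO minus that in Dux-Het cells gave no call among the 10 genes and none over the table (edgeR, 0.00% called; 0 of the 10 at an unadjusted p under 0.05, and 0 by DESeq2). The largest of these differences was 0.27 on the log2 scale for Cbll1 (SE 0.312), so the interval still allows effects as large as those seen in the Ythdc1 set. Under DMSO, Dux-KO against Dux-Het cells gave no call for the 10 genes (edgeR, 0.0341% called; 0 at an unadjusted p under 0.05, and 0 by DESeq2), with log2 differences from -0.22 (Rbm15b) to 0.33 (Alkbh5).

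Alkbh5 showed the widest levels in this set. It had 113 and 102 CPM in Dux-KO cells under 4OHT, against 175 and 154 CPM under DMSO. In Dux-Het cells it had 97.0 and 81.0 CPM under 4OHT, against 160.1 and 98.1 CPM under DMSO, and the pair with no Dux label had 90.7 CPM under 4OHT and 149.6 CPM under DMSO. Each 4OHT group lay below its DMSO group, but replicate 2 of the Dux-Het DMSO group was at the level of 4OHT cells. The log2 fold changes were -0.57 (SE 0.209, adjusted p = 0.108) in Dux-KO and -0.52 (SE 0.209, adjusted p = 0.152) in Dux-Het cells by edgeR. In Dux-KO cells it passed with DESeq2 (adjusted p = 0.0419), with only the libraries of the contrast (-0.60, adjusted p = 0.0189 by edgeR) and with no filter on low counts (adjusted p = 0.00865). In Dux-Het cells it passed with no filter (adjusted p = 0.0339). Without replicate 2 of the Dux-Het DMSO group, the value in Dux-Het cells was -0.82 and passed (adjusted p = 0.0238 by edgeR).

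A mean of the 4OHT effects over Dux-KO, Dux-Het and the pair with no Dux label, a contrast added after the data were seen, called 2 of the 10 genes, both lower, where 27.1% of 29322 entries were called. The count is below the share called in either direction. In the lower direction alone, 3512 of the 29322 entries were called. The median of the 10 genes was -0.14, against 0.057 over all entries. For Alkbh5 the mean effect was -0.60 (SE 0.140, adjusted p = 0.00975 by edgeR). It passed in all 14 alternatives, but none of these left out the pair with no Dux label. For Rbm15b the mean effect was -0.35 (SE 0.108, adjusted p = 0.0349 by edgeR). Rbm15b had 36.3 and 40.9 CPM in Dux-KO cells under 4OHT, against 51.5 and 42.8 CPM under DMSO. In Dux-Het cells it had 39.6 and 41.2 CPM under 4OHT, against 49.6 and 58.7 CPM under DMSO. The pair with no Dux label had 35.3 CPM under 4OHT and 46.6 CPM under DMSO. Treated and control libraries did not overlap within either genotype, but the Rbm15b call was lost (adjusted p = 0.0638 to 0.0890 by edgeR) when Dux-Het DMSO replicate 2, Dux-Het 4OHT replicate 1 or either Dux-KO 4OHT replicate was left out.

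Mettl14, which fell in the Ythdc1 set, had 16.8 and 18.3 CPM in Dux-KO cells under 4OHT, against 17.5 and 22.7 CPM under DMSO. In Dux-Het cells it had 20.9 and 20.6 CPM under 4OHT, against 21.7 and 24.3 CPM under DMSO. The mean effect over the Dux set was -0.18 (SE 0.116, adjusted p = 0.286 by edgeR). Fto was below its DMSO group in both Dux genotypes, with 76.9 and 76.8 CPM under 4OHT and 89.9 and 79.4 CPM under DMSO in Dux-KO cells, and 76.3 and 80.6 CPM under 4OHT and 89.1 and 84.5 CPM under DMSO in Dux-Het cells, but the mean effect of -0.13 (SE 0.0905) did not pass (adjusted p = 0.301 by edgeR). Zc3h13 had 43.9 and 47.5 CPM under 4OHT and 53.4 and 54.8 CPM under DMSO in Dux-KO cells, and 48.2 and 49.8 CPM under 4OHT and 55.6 and 58.5 CPM under DMSO in Dux-Het cells. It was below its DMSO group in both genotypes, and its mean effect of -0.25 (SE 0.0908) did not pass (adjusted p = 0.0621 by edgeR), though it did with DESeq2's size factors (adjusted p = 0.0470) or the authors' factors (adjusted p = 0.0417).

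Wtap and Cbll1 leaned the other way in the Dux set, and Mettl3 less so. Wtap had 83.0 and 76.5 CPM in Dux-KO cells under 4OHT, against 57.4 and 71.0 CPM under DMSO, and 79.9 and 98.8 CPM in Dux-Het cells under 4OHT, against 58.9 and 83.8 CPM under DMSO. Cbll1 had 22.7 and 26.6 CPM in Dux-KO cells under 4OHT, against 13.6 and 22.7 CPM under DMSO, and 23.6 and 20.8 CPM in Dux-Het cells under 4OHT, against 19.0 and 19.9 CPM under DMSO. The groups were apart for Wtap in Dux-KO cells and for Cbll1 in Dux-Het cells, and overlapped otherwise. Neither passed (mean effects 0.28 and 0.28, adjusted p = 0.127 and 0.178 by edgeR), but Wtap passed without Dux-Het DMSO replicate 2 (0.38, adjusted p = 0.0306) and Cbll1 without Dux-KO DMSO replicate 2 (0.40, adjusted p = 0.0294). Cbll1 was also lower in every library of the Dux set, at 13.6 to 26.6 CPM, than in the 8 libraries of the Ythdc1 set, at 32.3 to 36.1 CPM, a level set across experiments that was not tested. Mettl3, Virma and Rbm15 gave mean effects of 0.098, -0.061 and -0.15, and none passed (adjusted p = 0.496, 0.676 and 0.278 by edgeR).

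The difference between the 4OHT effect of the Ythdc1 set and that of the Dux set, also added after the data were seen, gave no call among the 10 genes (edgeR, 1.29% of 31020 entries called; 1 gene at an unadjusted p under 0.05, Alkbh5, and 0 by DESeq2). For Alkbh5 the difference was 0.36 (SE 0.164, adjusted p = 0.331), for Mettl14 -0.21 (SE 0.134) and for Rbm15b 0.0093 (SE 0.120). A call in one set and none in the other is therefore not shown to be a difference between the sets, which share no library.

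The balance between genes within a library does not depend on scaling, and ratios of pairs chosen after their values were seen are given as a description. Mettl3 counts over Mettl14 counts were 1.80, 1.86, 2.02 and 1.62 in the Ythdc1 set under 4OHT, against 1.24, 1.22, 1.32 and 1.18 under DMSO. The groups did not overlap. In Dux-Het cells the ratio was 1.69 and 1.74 under 4OHT and 1.44 and 1.51 under DMSO, and in the pair with no Dux label 1.72 under 4OHT and 1.29 under DMSO. Dux-KO cells gave 1.94 and 1.83 under 4OHT and 1.87 and 1.46 under DMSO, which overlap. The libraries labelled Mettl3 KO gave 0.775 and 1.16 and the WT libraries 1.03 and 1.03. Over all 9 libraries of each treatment in Ythdc1 cKO cells the ratio ran from 1.62 to 2.02 (median 1.80) under 4OHT and from 1.18 to 1.87 (median 1.32) under DMSO. Alkbh5 over Fto ran from 1.00 to 1.47 under 4OHT (median 1.22) and from 1.15 to 1.94 under DMSO (median 1.39), with the highest values, 1.94 and 1.94, in Dux-KO cells under DMSO.

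**Figure D3:**
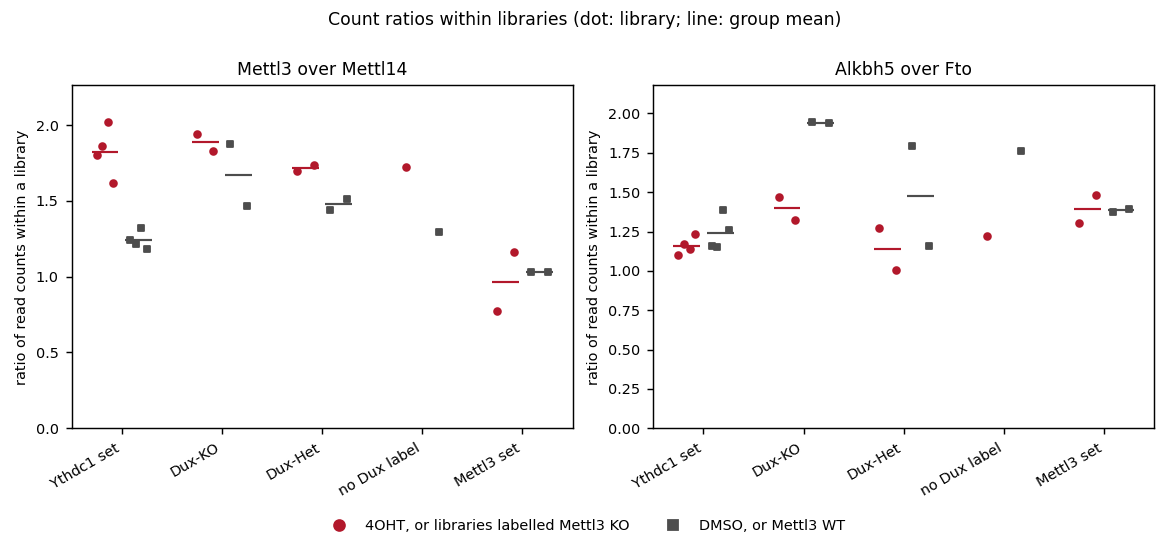
Ratio of read counts within each library (y axes, from 0) for Mettl3 over Mettl14 and for Alkbh5 over Fto, with red dots for 4OHT or the Mettl3 KO label, grey squares for DMSO or Mettl3 WT, and lines for group means. Mettl3 over Mettl14 lies between 1.62 and 2.02 in every 4OHT library. It lies between 1.18 and 1.32 in the DMSO libraries of the Ythdc1 set, and reaches 1.87 over all DMSO libraries, which overlaps the 4OHT range.

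The Mettl3 set asks what changes with the knockout label of the writer. Wtap, Virma, Cbll1 and Rbm15, 4 subunits outside the catalytic pair, rose in the libraries labelled Mettl3 KO. None of the 10 genes was called lower. Mettl3, Mettl14, Fto and Alkbh5 were lower in both KO libraries than in either WT library. The share of all entries placed in this way was not counted. Beside the 4 calls, all higher, 31.2% of 23977 entries were called in either direction, 16.4% higher and 14.9% lower. The median log2 fold change of the 10 genes was 0.041, against 0.016 over all entries tested. Without KO replicate 2, the same 4 passed higher and Mettl3, Mettl14, Fto and Alkbh5 passed lower, while 9716 of all entries were called, and without WT replicate 1 none of the 10 passed and 351 entries were called.

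Wtap (chr17:12966796-12994169, minus strand) had 101 and 108 CPM in the libraries labelled Mettl3 KO, against 50.8 and 53.1 CPM in the WT libraries. Both KO libraries were far above both WT libraries, and this was the largest change of the 10 genes in any comparison within a set (2.03-fold, log2 fold change 1.02 with SE 0.0907, edgeR adjusted p = 8.02e-05). Virma (chr4:11485958-11550684, plus strand) had 94.6 and 100.3 CPM in the KO libraries and 60.1 and 61.7 CPM in the WT libraries (log2 fold change 0.69 with SE 0.0885, edgeR adjusted p = 0.000461). Cbll1 (chr12:31484829-31499616, minus strand) had 36.6 and 40.9 CPM in the KO libraries and 26.4 and 24.4 CPM in the WT libraries (0.63, SE 0.113, adjusted p = 0.00299). Rbm15 (chr3:107325421-107333673, minus strand) had 93.1 and 97.4 CPM in the KO libraries and 68.0 and 71.9 CPM in the WT libraries (0.46, SE 0.0884, adjusted p = 0.00398). For each of these 4 genes the KO replicates lay close together and replicate 2 was the higher. Without KO replicate 2, the log2 fold changes were 0.96 for Wtap, 0.64 for Virma, 0.53 for Cbll1 and 0.42 for Rbm15, and without KO replicate 1 they were 1.06, 0.73, 0.70 and 0.49. All 4 passed both times by edgeR, with the lone library assumed to vary like the WT group. Without WT replicate 1, none of the 4 passed (adjusted p = 0.0530 to 0.164 by edgeR), and without WT replicate 2 Cbll1 and Rbm15 did not (adjusted p = 0.103 and 0.0951), though the fold changes stayed between 0.41 and 1.05.

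Mettl14 had 18.7 and 24.5 CPM in the libraries labelled Mettl3 KO, against 28.2 and 29.1 CPM in the WT libraries. The groups did not overlap, and KO replicate 1, which was low for Mettl3, was also the lower for Mettl14. The log2 fold changes over both libraries, -0.44 for Mettl3 (SE 0.245, adjusted p = 0.207) and -0.39 for Mettl14 (SE 0.140, adjusted p = 0.0615), did not pass by edgeR. Without KO replicate 2, the log2 fold change was -1.02 for Mettl3 and -0.61 for Mettl14, and both passed (adjusted p = 1.39e-11 and 1.07e-05 by edgeR). Without KO replicate 1, Mettl3 was at -0.041 and Mettl14 at -0.21, and neither passed (adjusted p = 0.817 and 0.137).

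The demethylases were lower in both KO libraries than in either WT library. Fto had 60.8 and 61.3 CPM in the KO libraries, against 75.2 and 72.5 CPM in the WT libraries, and Alkbh5 had 79.3 and 91.0 CPM in the KO libraries, against 104 and 101 CPM in the WT libraries. Neither passed over both libraries (log2 fold changes -0.26 and -0.25, adjusted p = 0.0518 and 0.0735 by edgeR). Fto passed without KO replicate 1 (-0.26, adjusted p = 0.00688), without KO replicate 2 (-0.28, adjusted p = 0.00392) and with the authors' factors for scaling (adjusted p = 0.0455). Alkbh5 passed without KO replicate 2 (-0.36, adjusted p = 2.19e-05). Zc3h13 had 49.7 and 50.4 CPM in the KO libraries and 55.8 and 50.3 CPM in the WT libraries, and Rbm15b had 45.3 and 41.0 CPM in the KO libraries and 39.6 and 39.1 CPM in the WT libraries. Zc3h13 overlapped and Rbm15b was above WT in both KO libraries, but neither passed (log2 fold changes -0.068 and 0.15, and -0.089 and 0.21 without KO replicate 2).

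Neighbouring genes bear on how reads at these loci were counted, since the library kit marks strand but the sources used here do not give how strand was used in counting. Mettl3 (chr14:52294841-52305128, minus strand) shares 933 exonic bases with Tox4 on the opposite strand. Tox4 had 56.8 and 32.8 CPM in KO replicates 1 and 2, against 78.2 and 78.7 CPM in the WT libraries (log2 fold change -0.79 with SE 0.202, edgeR adjusted p = 0.0156, and -0.46 without KO replicate 2). The KO replicates were thus in opposite order for the overlapping genes, with replicate 1 the lower for Mettl3 and replicate 2 the lower for Tox4. Cbll1 contains the antisense gene Gm29542, whose 704 exonic bases lie within Cbll1 exons. Gm29542 had 15.2 and 15.6 CPM in the KO libraries and 10.4 and 9.36 CPM in the WT libraries (log2 fold change 0.66, edgeR adjusted p = 0.0066), and its reads cannot be told apart from those of Cbll1 without strand. Wtap and Rbm15 overlap no other annotated gene.

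**Figure D4:**
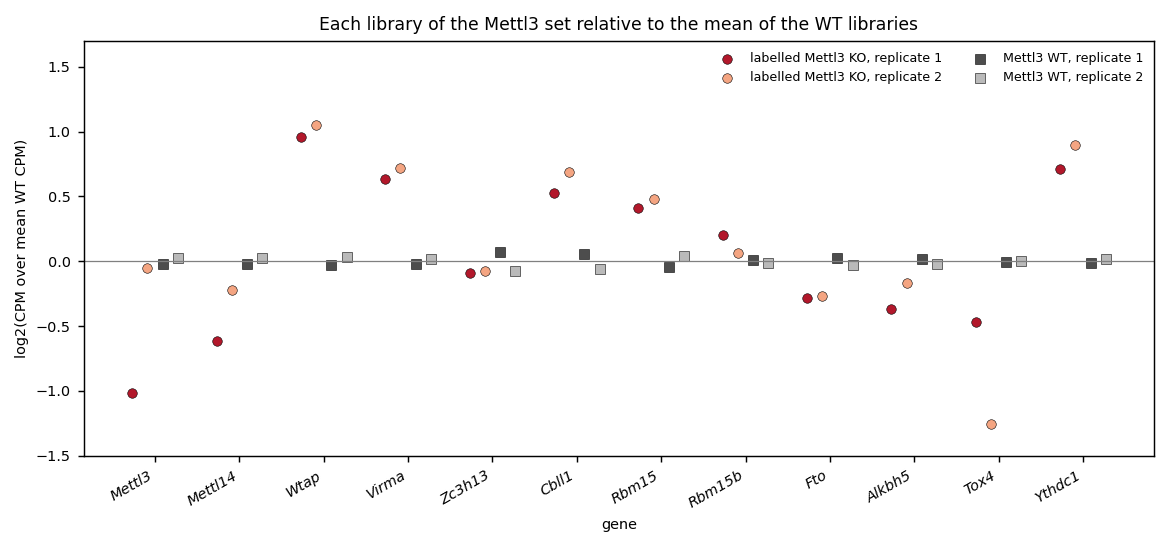
Log2 ratio of each library's CPM to the mean CPM of the Mettl3 WT libraries (y axis) for the 10 genes, for Tox4, which overlaps Mettl3, and for Ythdc1; circles are libraries labelled Mettl3 KO and squares are WT libraries. Both KO libraries are above WT for Wtap, Virma, Cbll1, Rbm15 and Ythdc1, and for Mettl3 replicate 1 is at 14.5 CPM while replicate 2, at 28.4 CPM, is beside the WT libraries.

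The 2 perturbations were set against each other in 1 fit of 12 libraries, as the Ythdc1 effect minus the Mettl3 effect. 6 of the 10 genes differed, 5 downward and 1 upward, where 25.3% of 28260 entries were called, 11.6% downward and 13.7% upward. Wtap (-0.88, SE 0.105, adjusted p = 4.48e-06 by edgeR), Virma (-0.64), Cbll1 (-0.64), Rbm15 (-0.52) and Rbm15b (-0.46, SE 0.115, adjusted p = 0.00522) gave negative differences, and each of these 5 passed in all 18 alternatives. Mettl3 itself gave a positive difference (0.63, SE 0.229) with an adjusted p just under the threshold, and that call was lost in 13 of the 18 alternatives. Mettl14 (0.030, SE 0.154), Fto (0.14, SE 0.0966), Alkbh5 (0.032, SE 0.132) and Zc3h13 (0.047, SE 0.120) were not called.

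The readers of m6A give the wider pathway. Of 12 reader genes, 9 were called lower and none higher in the Ythdc1 set, where 21.4% of all entries were called lower and 23.7% higher. Ythdc1, the targeted gene, is among the 12 and among the 9, so its call follows from the design. The median log2 fold change was -0.29 for the readers and 0.016 for all entries. The largest falls were in Igf2bp2 (-1.21, adjusted p = 8.01e-08 by edgeR) and Igf2bp3 (-0.98), which encode proteins that bind and stabilise target RNAs. Among the same 12, 5 rose and 2 fell in the Mettl3 set, where 16.4% of all entries were called higher and 14.9% lower (median of the readers 0.23, of all entries 0.016), led upward by Ythdf2, whose product promotes decay of methylated RNA (1.24, adjusted p = 2.37e-05 by edgeR), and by Ythdc1 (0.82), and downward by Hnrnpa2b1 (-0.41) and Hnrnpc (-0.25). Without KO replicate 2, the median of the readers was 0.24, with Ythdf2 at 1.21 and Ythdc1 at 0.72. Igf2bp2 and Igf2bp3 also fell in both Dux genotypes under 4OHT (-0.84 and -0.72 in Dux-KO, -1.01 and -0.94 in Dux-Het), and no other reader passed in either genotype alone, where 9.86% and 9.34% of entries were called. The mean 4OHT effect over the Dux set called 6 of the 12 readers, all lower (median -0.30). In that contrast 27.1% of entries were called in either direction, and 3512 of 29322 were called lower. The difference between the Ythdc1 and Mettl3 effects was called for 6 readers, all negative, where 11.6% of entries were called in that direction, with the largest for Ythdf2 (-1.53) and Igf2bp2 (-1.53).

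A list of 7 genes was taken for the methyl donor cycle, which supplies S-adenosylmethionine. It includes the Ahcy-like genes Ahcyl1 and Ahcyl2, whose part in the cycle was not examined. Mat2a rose in the Ythdc1 set (0.48, adjusted p = 9.36e-05 by edgeR). Of the 7, 3 fell, among them Ahcyl1 (-0.59) and Ahcy (-0.56), against a background of 23.7% of entries called higher and 21.4% lower. In the Mettl3 set the largest falls were in Mat2b (-0.66) and Mat2a (-0.45). There, 3 of the 7 were called lower and none higher, beside 14.9% of entries called lower and 16.4% higher. Their medians were -0.11 in the Ythdc1 set and -0.31 in the Mettl3 set. Ahcy, the hydrolase that removes the by-product of methylation, also fell in Dux-KO (-0.81) and Dux-Het cells (-0.80) under 4OHT. Of 7 AlkB paralogs of the demethylases, Alkbh1 (0.38) and Alkbh4 (0.34) rose in the Ythdc1 set. Alkbh4 also rose in the Mettl3 set (0.52, adjusted p = 0.0445 by edgeR). None was called lower in either set, and none passed in either Dux genotype. These counts of 2 of 7 and 1 of 7 stand beside 23.7% and 16.4% of all entries called higher. Of 5 genes of other adenosine methyltransferases and their cofactors, Trmt112 fell in the Ythdc1 set (-0.31) and in the Mettl3 set (-0.52), and Mettl5, which it activates, fell in the Mettl3 set (-0.52), which is 1 of 5 beside 21.4% and 2 of 5 beside 14.9% of entries called lower. Without KO replicate 2 of the Mettl3 set, the median log2 fold change was -0.31 for the methyl donor cycle. It was 0.18 for the AlkB paralogs and -0.23 for the other methyltransferase genes.

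Across the 22 libraries, gene entries with a mean of at least 5 CPM (11882 in all) were ranked by Pearson correlation of log2(CPM + 0.5) with Mettl3, Mettl14, Wtap, Fto and Alkbh5. These libraries share groups, depth and set, so the values describe likeness only. Fto was most like Ctnnbl1, Traf7 and Xrcc5 (r = 0.94 each), and Alkbh5 most like Pigs (0.93), Kpnb1 (0.92) and Arf1 (0.92). Mettl14 was most like Appl1 (0.93) and Ssb (0.92), Wtap most like Entr1 (0.87), Nsd1 (0.87) and Ddx17 (0.85), and Mettl3 most like Gm45804 (0.86), Gm37978 (0.86) and Tmem39b (0.85). None of these genes belongs to the writer complex or the demethylases. Among the 10 genes themselves the closest pairs were Rbm15 with Virma (0.73), Virma with Wtap (0.67) and Alkbh5 with Fto (0.63), and the most opposed pair was Alkbh5 with Cbll1 (-0.64).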

How the data were processed

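The authors deposited whole-number counts per gene and repeat family for 22 libraries, and a table of normalized signal that divides each count by 1 factor per library. That table as held has 34971 complete lines and was used solely for a second scaling. The submitters' processing notes name STAR 2.7, Bowtie2, RSEM, bcl2fastq and mm10. Which tool counted reads, and whether by strand, is not stated in the labels. In the Dux set the genotype and treatment fields are shifted by 1 sample against the titles, and the titles, which match the column names, were used. Counts were tested with edgeR 4.0.16 in R 4.3.3 (filterByExpr, TMM, glmQLFit, glmQLFTest) over all entries, with p-values adjusted by Benjamini and Hochberg's method (threshold 0.05). DESeq2 1.42.0 was an alternative. Each SE was taken from the fold change and its F statistic. The fits were also run on simulated counts with the same spread for every entry and library. Replicates here differed unevenly, so that run does not show how the fits behave on these data. The Ythdc1, Mettl3 and Dux sets were fitted apart. Labels do not say that replicates are separate cultures, so the p-values reflect the spread among these libraries alone, which may be technical. All 10 genes are named for the Ythdc1 set, the Mettl3 set, the mean over the Dux set and the Ythdc1 effect minus the Mettl3 effect. The other comparisons name only some of them. Of each pathway list at most the 2 largest rises and the 2 largest falls are named. Ythdc1 is also given in the Ythdc1 set, the Mettl3 set and each Dux genotype. Genes and lists were chosen with earlier results of these data known. Positions are from GENCODE vM21 on GRCm38, and upstream windows from RefSeq. Alternatives were another scaling, DESeq2, no filter, gene entries alone, a replicate block, only the libraries of the contrast, and leaving out each library in turn. The pair with no Dux label was never left out.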

Additional observations from a re-analysis of the deposited data

Results flagged for a closer look

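The effects of the 2 perturbations differed for 6 of the 10 genes in the test of the Ythdc1 effect minus the Mettl3 effect (log2, edgeR's quasi-likelihood test over 12 libraries, 25.3% of entries called). The differences were -0.88 for Wtap, -0.64 for Virma, -0.64 for Cbll1, -0.52 for Rbm15 and -0.46 for Rbm15b. For Wtap, Virma, Cbll1 and Rbm15, both libraries labelled Mettl3 KO were above both WT libraries, while the 4OHT and DMSO libraries of the Ythdc1 set overlapped for Wtap, Virma, Cbll1 and Rbm15. For Rbm15b, all 4 libraries of the Ythdc1 set under 4OHT were below all 4 under DMSO, and both libraries labelled Mettl3 KO were above both WT libraries. Of the 10 genes, 5 lay above WT in this way in the Mettl3 set, 4 lay below and 1 overlapped. The share of all entries separated in this way was not counted, so these counts are not read as a result about the 10 genes. For Mettl3 the difference was 0.63, and without KO replicate 1 it was 0.20 (adjusted p = 0.435 by edgeR). The sets differ in lines, depth and design, and the part of these in the differences was not tested. In the 20 groups of 4 libraries examined (10 genes, 2 groups), no library stood far apart from the rest of its group by Dixon's test.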

How the results depend on the processing

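Over 1260 alternative values of the 10 genes, 1211 kept their direction where called and their side of the threshold, 29 lost a call, 20 gained one and none reversed. The number of the 10 genes called in the Mettl3 set ran from 0 to 8 when 1 library was left out, and the number of all entries called from 351 to 9716, against 7492. It was 0 without WT replicate 1, 2 without WT replicate 2 and 8 without KO replicate 2. In Dux-Het cells under 4OHT the number was 1 with no filter, and 0 to 1 when 1 library was left out. In Dux-KO cells it was 1 with DESeq2, 1 with no filter, 1 with the replicate block and 1 with only the libraries of the contrast, and 0 to 1 when 1 library was left out (Cbll1 without DMSO replicate 2, Alkbh5 in the others). The mean 4OHT effect over the Dux set called 1 to 3 genes when 1 library was left out, and the Ythdc1 set minus the Dux set 0 to 1. In the Ythdc1 set 3 or 4 genes were called in every alternative, and Fto was the gene that lost its call. The cause of these changes was not tested. Entries called in all moved by over 1.5 times in Dux-Het cells (2738 as reported, 4319 with no filter, 1032 with only the libraries of the contrast, and 1254 to 2093 when 1 library was left out) and in Dux-KO cells (2890 as reported, 4701, 4914, and 423 to 2427 in the same order). They moved likewise for the mean over the Dux set (7943, down to 4985 when 1 library was left out), for Dux-KO against Dux-Het under DMSO (10, 17 with DESeq2, 124 with no filter, 0 to 15 when 1 library was left out), for the Dux-KO effect minus the Dux-Het effect (0, 2 with DESeq2, 28 with no filter) and for the Ythdc1 set minus the Dux set (400, 934 with DESeq2, 1272 with no filter, 749 with the replicate block, 149 to 696 when 1 library was left out).

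Libraries of the same number deviated together from their group means in the Ythdc1 set with correlations of 0.31, 0.086, 0.31 and 0.31 over 12689 entries, each higher than with any other number. As number 2 was under 0.1, the numbers were not taken to pair the libraries. With the replicate block the Ythdc1 set still called 4 genes (Mettl14 at -0.41, Rbm15b at -0.36, Alkbh5 at -0.25 and Fto at -0.16), the Mettl3 set called 5, with Mettl14 added (adjusted p = 0.0363 by edgeR), Dux-KO cells called Alkbh5 (-0.57, adjusted p = 0.0272 by edgeR), and the difference between the sets called 6. Each of the 10 genes had at least 395 reads in every library. The SE of a log2 fold change within 1 Dux genotype was 0.136 to 0.221, against 0.0568 to 0.0782 in the Ythdc1 set, and the part of library number and of replicate spread in this was not separated.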
